A study of Mus musculus with 38 samples.

Results

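Nfatc1, Nfatc2, Nfatc3 and Nfat5 encode 4 of the NFAT transcription factors, and the open chromatin at their loci was followed across sorted CD8+ T cells of young and aged mice. A peak was counted as an NFAT peak where the nearest mm10 protein-coding gene body, within 100 kb, was that of Nfatc1, Nfatc2, Nfatc3 or Nfat5. That gave 67 of 73610 peaks in the table of endogenous tumour-infiltrating cells: 29 for Nfatc1, 19 for Nfatc2, 4 for Nfatc3 and 15 for Nfat5. The table of OT-1 and naive cells held 112 of 169323 peaks, 50 for Nfatc1, 37 for Nfatc2, 10 for Nfatc3 and 15 for Nfat5. A peak between genes was thus given to a gene by distance alone.

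ATAC-seq uses the Tn5 transposase to insert sequencing adapters into accessible DNA, so reads pile up in open chromatin. All mice were C57BL/6J with a genotype labelled wild type, young at 10-12 weeks of age or aged at 64-68 weeks. CD8+ T cells were taken from B16-OVA melanomas, a mouse tumour line that carries ovalbumin, at day 15, and naive CD8+ cells from spleens of young (n = 2 libraries) and aged (n = 2) mice. Tumour cells were sorted into progenitor exhausted cells (Tprog, Slamf6+ Tim-3-), terminally exhausted cells (Tterm, Slamf6- Tim-3+) and, from aged mice, cells that the labels call age-associated dysfunctional (Tadys, Slamf6- Tim-3-). The endogenous libraries were young Tprog (n = 4), young Tterm (n = 5), aged Tprog (n = 3), aged Tterm (n = 3) and aged Tadys (n = 2). All carry the batch entry Batch 1 & 2. Which library was in which batch is not labelled, so no batch term could be fitted to them. OT-1 libraries, from cells whose transgenic T cell receptor sees an ovalbumin peptide, were young Tprog (n = 2), aged Tprog (n = 2), young Tterm (n = 7) and aged Tterm (n = 6). The labels do not say whether the age of an OT-1 library is that of the donor or of the tumour-bearing host. Each library held 5000 to 50000 cells of pooled mice.

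NFAT proteins encoded by Nfatc1, Nfatc2 and Nfatc3 are held in the cytoplasm by phosphorylation. Calcium entering through store-operated channels after receptor engagement activates the phosphatase calcineurin, which removes those phosphates, and NFAT then enters the nucleus and binds GGAAA motifs, often beside AP-1. In T cells NFAT with AP-1 drives cytokine genes, while NFAT acting with little AP-1 is known for driving genes of anergy and exhaustion, and Nfat5 answers to osmotic stress without calcineurin.

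The upstream sequences of annotated starts are shown for Nfatc2, whose start peaks moved in opposite directions between subsets of young endogenous cells. They are also shown for Nfat5 and Nfatc3, whose start peaks were among those called there. They come from RefSeq on GRCm38.p6 (the mm10 assembly), 250 bases upstream of each start, 5′ to 3′ on the gene's strand, with GGAAA or its reverse complement in capitals. The windows are chr2:168601658-168601907 and chr2:168590366-168590615 on the minus strand, and chr8:106058568-106058817 and chr8:107293220-107293469 on the plus strand.
Nfatc2, outer start: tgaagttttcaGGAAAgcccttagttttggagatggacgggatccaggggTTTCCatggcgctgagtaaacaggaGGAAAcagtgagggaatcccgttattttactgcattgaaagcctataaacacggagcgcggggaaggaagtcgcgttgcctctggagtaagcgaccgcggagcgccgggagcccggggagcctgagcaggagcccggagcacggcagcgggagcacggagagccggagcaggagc
Nfatc2, inner start: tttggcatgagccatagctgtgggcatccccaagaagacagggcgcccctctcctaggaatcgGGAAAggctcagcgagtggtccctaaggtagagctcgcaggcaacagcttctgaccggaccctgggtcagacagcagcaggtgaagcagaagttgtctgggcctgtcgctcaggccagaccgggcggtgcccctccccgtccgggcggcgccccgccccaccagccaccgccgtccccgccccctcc
Nfatc3, outer start: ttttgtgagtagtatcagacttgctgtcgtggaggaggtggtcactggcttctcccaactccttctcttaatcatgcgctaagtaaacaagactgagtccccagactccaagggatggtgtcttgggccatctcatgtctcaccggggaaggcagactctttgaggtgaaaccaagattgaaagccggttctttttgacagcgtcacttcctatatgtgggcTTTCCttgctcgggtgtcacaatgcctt
Nfat5: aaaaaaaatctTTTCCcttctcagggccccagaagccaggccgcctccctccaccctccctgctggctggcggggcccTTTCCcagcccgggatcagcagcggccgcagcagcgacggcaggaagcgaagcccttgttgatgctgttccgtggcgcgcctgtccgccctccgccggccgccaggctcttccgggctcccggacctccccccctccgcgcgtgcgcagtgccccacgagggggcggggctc

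The window of the outer Nfatc2 start at position 168601657 held 3 GGAAA matches on either strand, 239, 200 and 175 bases before the start. The inner Nfatc2 start at 168590365 had 1 match, at 187 bases, the outer Nfatc3 start 1 match, at 28 bases, and Nfat5 had 2, at 239 and 172 bases. A further Nfatc3 start at 106059590 had 0 matches. GGAAA holds the GGAA core of ETS factor sites as well, and 55.6% of 32851 mouse promoters of the same length contain it, so a match here is a description of letters only. Matches to TGANTCA (the AP-1 motif), TGTGGT (the RUNX motif), CTTTGAA and CTTTGAT (the TCF and LEF motifs) numbered 0 in all 5 windows, against 6.75%, 14.0%, 4.46% and 3.21% of all promoters. The GC content was 59.6% in the outer Nfatc2 window, 67.6% in the inner one, 49.6% in the outer Nfatc3 window, 65.2% in the further Nfatc3 window and 71.6% for Nfat5, against a median of 52.4% over all promoters. The Nfatc1 start was not analysed here.

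Levels below are normalized reads per peak, as mean ± SD over libraries, and log2 differences carry ± SE from limma. A peak was called where limma's Benjamini-Hochberg adjusted p, over all tested peaks of its table, was under 0.05. Depth ran from 4.64 to 87.6 megareads in peaks per endogenous library and from 6.80 to 27.7 megareads in the other table, and the 2 tables were normalized apart. The Slamf6 peak at its gene end had 280.5 to 437 reads in Tprog libraries against 78.8 to 140 in Tterm and 78.1 to 149 in Tadys. The Havcr2 peak, at the gene for Tim-3, had 1442 to 1707 in Tterm, 561 to 733 in Tprog and 924 to 947 in Tadys. Among marker genes of other cells, gene-end peaks were absent from both tables for Pax5 (B cells), Csf1r and Adgre1 (macrophages), Tyr and Pmel (melanoma), Foxp3 (regulatory T cells) or Ncr1 (NK cells). Summed over the 6 of 12 myeloid markers with a gene-end peak, young Tterm libraries had 3339 to 4035 reads and young Tprog libraries 2829 to 3389. The sums of the 4 of 7 CD4 and regulatory T cell markers (Zbtb7b, Ctla4, Ikzf2 and Il2ra) were 3414 to 4092 and 3141 to 3635. Those of the 2 of 6 NK markers (Klrb1c and Eomes) were 2123 to 2940 and 1877 to 2338. Ctla4 and Il2ra are also on the list of NFAT target genes used below. The 4 of 8 B cell markers with a gene-end peak summed to 485 to 587 in young Tterm and 418 to 499 in young Tprog. The 4 of 7 melanoma markers summed to 728 to 1116 and 718 to 1059. The part of these markers in the results was not tested. The normalized total was 18.6 to 21.1 megareads in young Tterm and 17 to 18.0 in young Tprog. A difference in a sorted pool can be a change within cells or a change in the mix of cells, which cannot be told apart here. The protocols give 2 or 3 pools per group, while young OT-1 Tterm has 7 libraries and young endogenous Tterm 5. Some libraries of such groups may thus be technical repeats. Nothing in the labels says which libraries of a group are separate pools of mice. The p-values therefore rest on the spread among libraries as deposited, and that spread may be technical.

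In young endogenous cells, chromatin at Nfatc1 was more open in Tterm than in Tprog at several intragenic peaks, Nfatc2 lost access at 5 peaks at or inside the gene and gained it at 2 others there and at 1 downstream, and 2 peaks inside Nfat5 lost access. Of the 65 NFAT peaks tested, 11 were called higher in Tterm and 7 lower, against 14.3% higher and 11.3% lower among all 71756 peaks tested. The NFAT shares were 16.9% and 10.8%, near those of all peaks, and the median log2 difference was 0.02 against -0.01 over all peaks. By gene, 5 of 27 Nfatc1 peaks were higher and 0 lower, 3 of 19 Nfatc2 peaks higher and 5 lower, 1 of 4 Nfatc3 peaks higher and 0 lower, and 2 of 15 Nfat5 peaks higher and 2 lower. The median differences were 0.26 for Nfatc1, -0.04 for Nfatc2, -0.33 for Nfatc3 and -0.19 for Nfat5. Of 5 NFAT gene-end peaks 2 were higher and 1 lower, beside 22.2% and 6.27% of all gene-end peaks. The start peaks of Nfatc2, Nfatc3 and Nfat5 were not called in the same contrast of aged endogenous or young OT-1 cells. Scaling all libraries to equal totals shifted the median of all peaks to -0.17 and gave 5 higher and 11 lower NFAT peaks, with 6025 higher and 11249 lower over all peaks against 10261 and 8115.

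**Figure D1:**
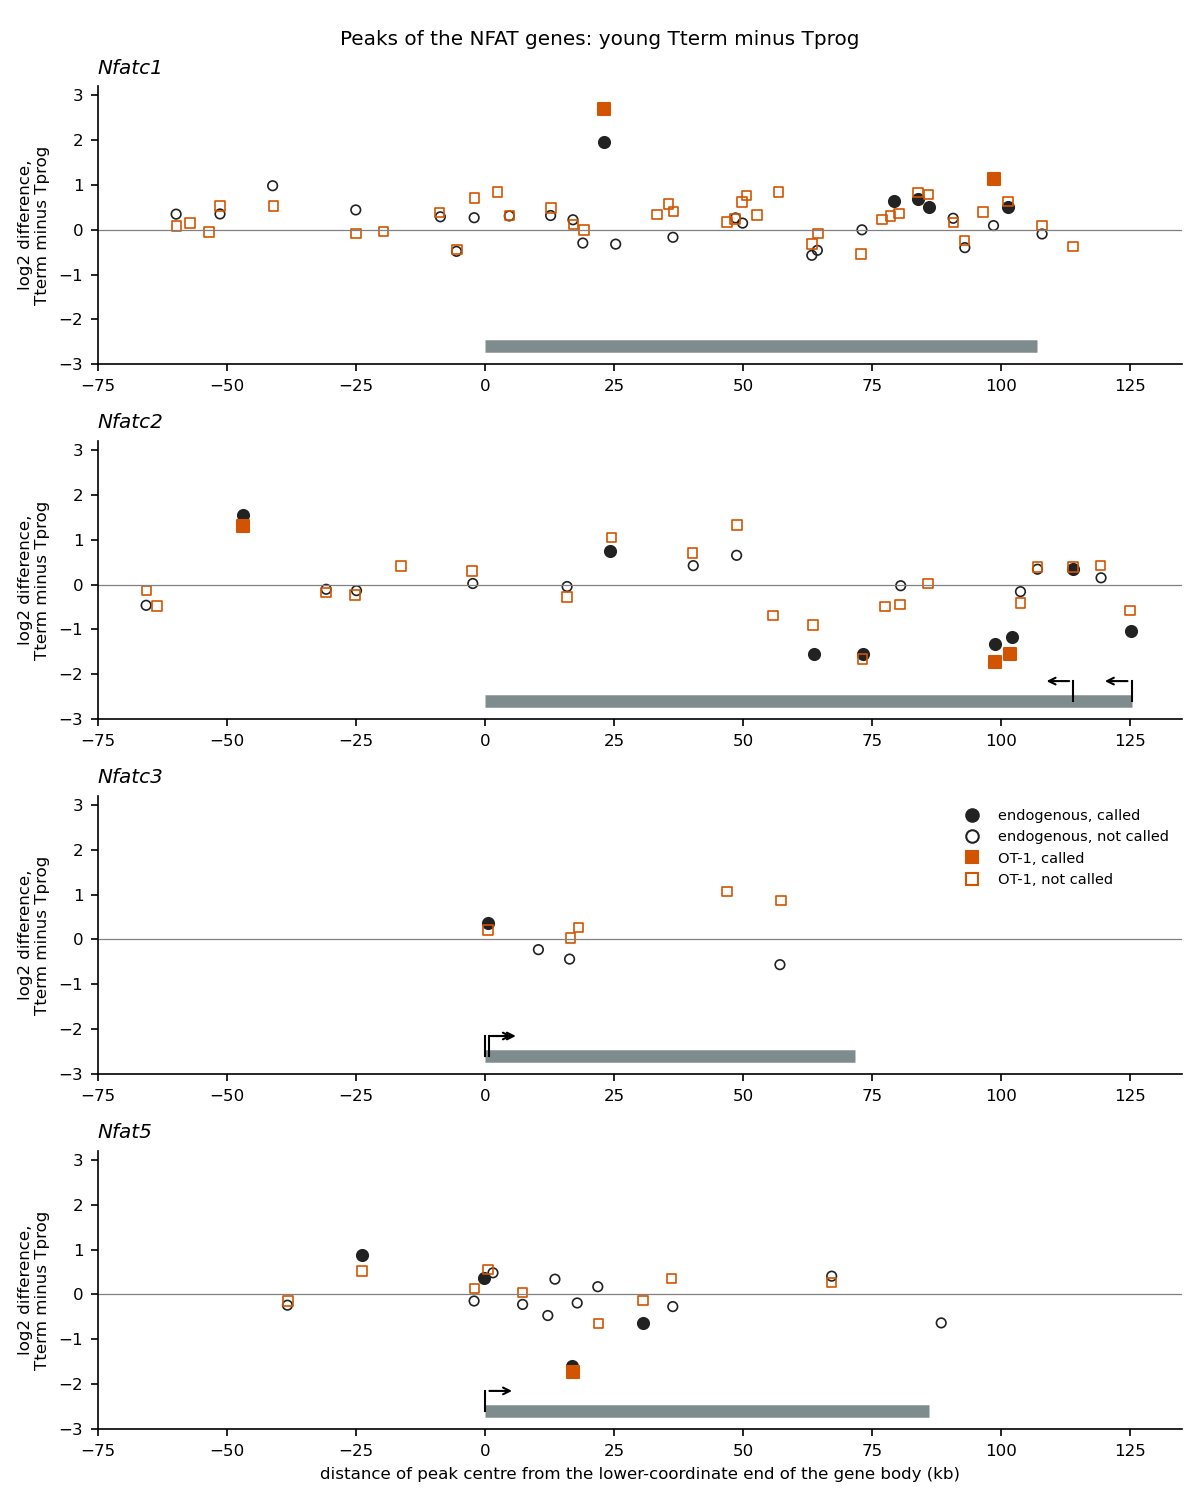
Each panel shows 1 NFAT gene, with peak position in kb from the lower-coordinate end of the gene on the x axis and the log2 difference of young Tterm minus young Tprog on the y axis; circles are endogenous peaks, squares OT-1 peaks, filled symbols are called, the grey bar is the gene body and arrows mark annotated starts. The called endogenous peaks run from -1.59 at Nfat5 to 1.94 at Nfatc1.

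Nfatc2 encodes NFAT1, the form abundant in resting T cells, and its locus (chr2:168476410-168601657, minus strand) held the lowest adjusted p of all NFAT peaks. It belonged to a peak 46.0 kb beyond the 3′ end of the gene, between genes, at chr2:168428517-168430391. Young Tprog libraries had 258, 271, 378 and 282 reads there and young Tterm libraries 713, 856, 936, 851 and 975. Every Tterm library was above every Tprog library. The means were 297 ± 54.6 (SD, n = 4) and 866 ± 101 (SD, n = 5), a log2 difference of 1.55 ± 0.13 (limma, adjusted p = 1.15e-09).

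Inside the Nfatc2 gene body the direction of the changes with the lowest p was the opposite. The intragenic peak at chr2:168574644-168575682 had 449, 465, 474 and 451 reads in young Tprog and 176, 209, 168, 195 and 173 in young Tterm, without overlap. Its means of 459.9 ± 11.9 and 184 ± 17.2 gave a log2 difference of -1.32 ± 0.14 (limma, adjusted p = 5.45e-08). A neighbour at chr2:168578296-168578650 fell likewise, from 148 ± 17.4 to 66.9 ± 18.8 (log2 -1.17 ± 0.24, adjusted p = 0.000571). Weaker intragenic peaks at chr2:168549431-168549754 and chr2:168539862-168540509 fell by 1.54 on the log2 scale each, to 15.6 ± 5.34 and 14.4 ± 8.96 reads in Tterm (limma, adjusted p = 0.00131 and 0.0122).

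The outer and the inner start of Nfatc2, whose sequences are given above, moved apart. The peak over the outer start, chr2:168601073-168601980, had 75.6, 57, 152 and 98.1 reads in young Tprog and 41.3, 43.5, 47.1, 66.7 and 26.9 in young Tterm. The groups overlapped by 1 library in each, and the log2 difference was -1.03 ± 0.35 (limma, adjusted p = 0.0296). That call was lost without young Tterm replicate 5 (-0.86, adjusted p = 0.0805), young Tprog replicate 3 (-0.78, 0.147) or young Tprog replicate 4 (-0.99, 0.075). The inner start lay in a far larger peak, chr2:168588826-168591582, with 1173 to 1381 reads in young Tprog and 1491 to 1780.5 in young Tterm. No library of one group reached the other, and the log2 difference was 0.35 ± 0.10 (limma, adjusted p = 0.0065), but 0.19 with adjusted p = 0.0915 at equal library totals. One more intragenic peak, chr2:168499964-168501210, rose from 79.6 ± 20.0 to 134 ± 39.7 with overlapping libraries (log2 0.74 ± 0.24, adjusted p = 0.0228). Its call was lost at equal totals (0.58, adjusted p = 0.0875) and without young Tterm replicate 3 (0.59, 0.0843) or young Tprog replicate 3 (0.54, 0.124).

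**Figure D2:**
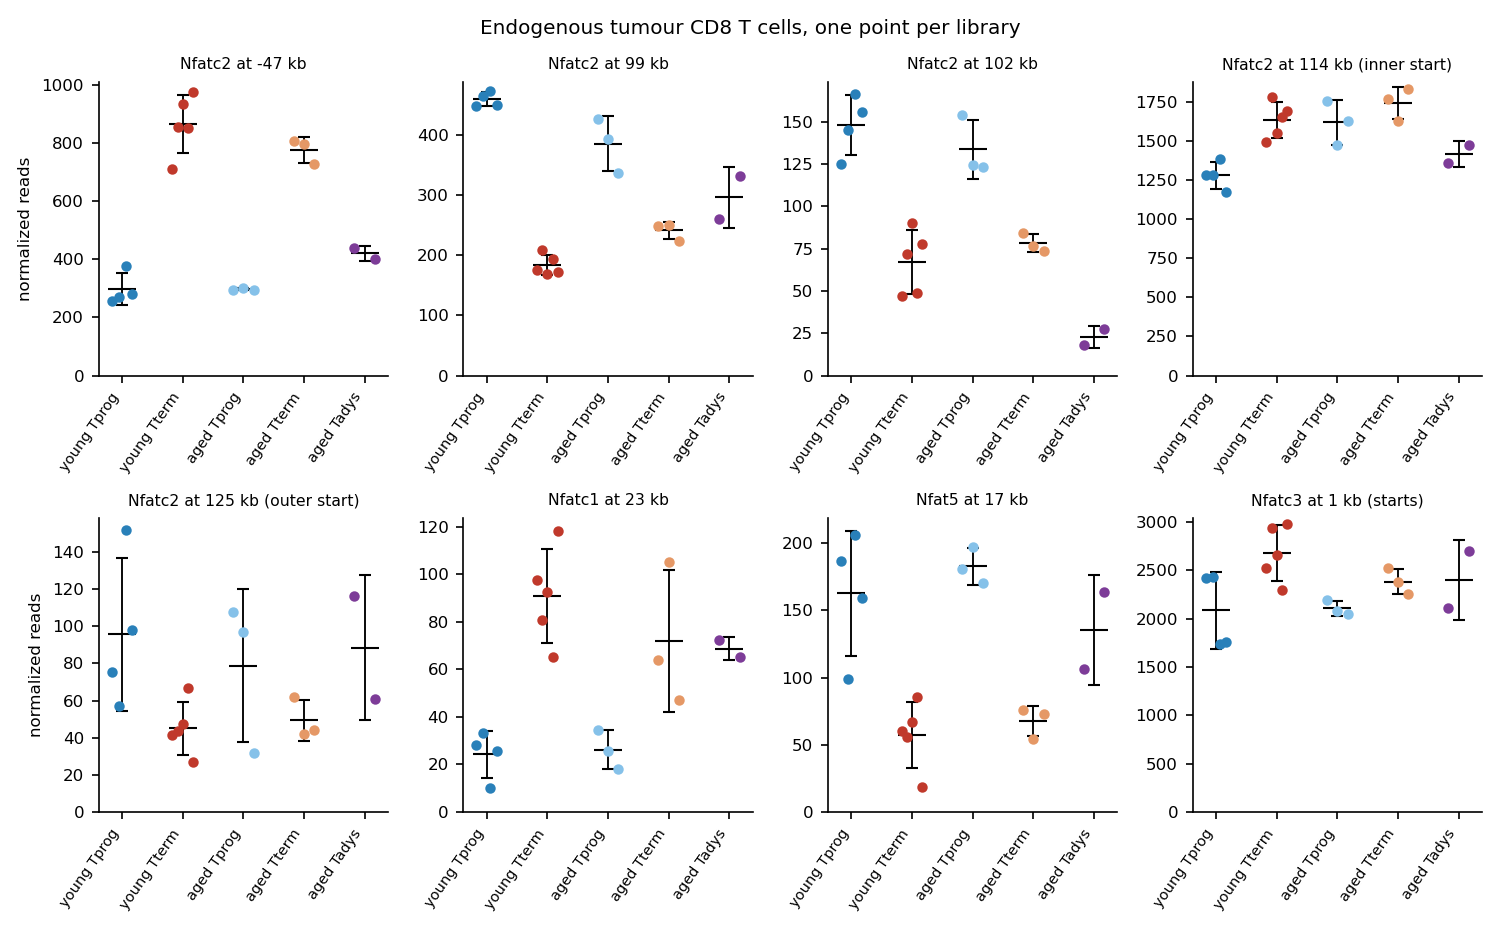
Normalized reads on the y axis are plotted for 8 NFAT peaks in the 5 endogenous groups; panel titles give the distance of the peak centre from the lower-coordinate end of the gene, points are libraries and bars show the mean ± SD. At the downstream Nfatc2 peak the Tadys libraries (403 and 439) sit between Tprog and Tterm, while at chr2:168578296-168578650 they are the lowest of all (18.0 and 27.3).

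Nfatc1 encodes NFAT2, whose short form is induced by NFAT itself after activation, and none of its 27 tested peaks was called lower in young Tterm. Its locus is chr18:80606205-80713071. The peak with the largest difference lay 23.0 kb inside the lower-coordinate end of the gene, at chr18:80628934-80629522. It had 28.4, 33.1, 10.3 and 25.5 reads in young Tprog and 97.5, 80.6, 92.5, 65.2 and 118 in young Tterm. The groups did not overlap, and the log2 difference was 1.94 ± 0.34 (limma, adjusted p = 7.85e-05).

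The other called Nfatc1 peaks were stronger and moved less. The peak at chr18:80684209-80686758 had 1141 to 1775 reads in young Tprog and 1906 to 2612 in young Tterm (log2 0.63 ± 0.13, adjusted p = 0.000577). Next to it, chr18:80689799-80690336 rose from 208 ± 27.7 to 339 ± 73.7 (log2 0.69 ± 0.16, adjusted p = 0.00225). The remaining 2 called peaks differed by 0.50, among them chr18:80706158-80708845, with 952 ± 56.4 in Tprog and 1348 ± 104 in Tterm (limma, adjusted p = 0.000354). The peak at the other end of the gene, chr18:80712199-80716006, was strong and close in both subsets, 1789.6 ± 175 in Tprog and 1671 ± 116 in Tterm (log2 -0.10 ± 0.10, adjusted p = 0.518).

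Nfatc3 encodes NFAT4, a form prominent in thymocytes, and had few peaks. The strongest covered both annotated starts of the gene (chr8:106058818-106130537, plus strand), at chr8:106058401-106060270. Young Tprog libraries had 2425, 2429, 1735 and 1755 reads and young Tterm libraries 2528, 2940, 2659, 2296 and 2979. Tterm replicate 4 lay below 2 of the Tprog libraries, and the log2 difference was 0.37 ± 0.11 (limma, adjusted p = 0.0136). The call was lost at equal totals (0.22, adjusted p = 0.111) and without young Tprog replicate 3 (0.29, 0.082) or 4 (0.30, 0.076). The other 3 Nfatc3 peaks lay inside the gene and differed by -0.23, -0.44 and -0.56, none called (lowest adjusted p = 0.0575).

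Nfat5 encodes the osmotic stress factor NFAT5, and its largest change was a loss inside the gene (chr8:107293435-107379517, plus strand). The intragenic peak at chr8:107309948-107310763 had 187, 99.3, 206 and 159 reads in young Tprog and 60.0, 56.0, 67.3, 85.7 and 18.5 in young Tterm. The groups did not overlap, and the log2 difference was -1.59 ± 0.31 (limma, adjusted p = 0.000301). A second intragenic peak, chr8:107323212-107324843, fell from 280.5 ± 46.7 to 179 ± 32.4 with 1 library of each group overlapping (log2 -0.64 ± 0.18, adjusted p = 0.00892). The peak over the annotated start, chr8:107292754-107293896, had 557 ± 54.4 in Tprog and 715 ± 62.9 in Tterm (log2 0.36 ± 0.13, adjusted p = 0.0365). That call was lost at equal totals (0.20, adjusted p = 0.238) and without young Tprog replicate 1 or 2 or young Tterm replicate 2, 4 or 5, where the adjusted p ran from 0.0592 to 0.127. An upstream peak at chr8:107269364-107269967 rose by 0.89 ± 0.33 on the log2 scale (adjusted p = 0.0487), but the call was lost with edgeR, DESeq2, equal totals or no filter and without 7 of the 9 libraries, with adjusted p of up to 0.173.

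In aged endogenous cells the same contrast called 3 NFAT peaks higher in Tterm and 2 lower, against 6.75% and 5.37% of all peaks. The NFAT shares were 4.62% and 3.08%, below those of all peaks, and the medians were 0.17 for NFAT peaks and 0.01 over all. The myeloid marker sums were 3040 to 3414 in aged Tterm and 2732 to 3001 in aged Tprog; their part was not tested. The downstream Nfatc2 peak had 296, 300.3 and 295 reads in aged Tprog and 806, 799 and 726 in aged Tterm (log2 1.38 ± 0.16, limma, adjusted p = 1.01e-06). The aged difference minus the young one was -0.17 ± 0.21 (limma, adjusted p = 0.86). The intragenic Nfatc2 peak at 168574644 had 427, 395 and 337 reads against 249.7, 250.5 and 224 (log2 -0.67 ± 0.17, adjusted p = 0.00849). Nfat5 at 107309948 had 181, 197 and 170.3 against 75.8, 54.5 and 72.9 (log2 -1.43 ± 0.38, adjusted p = 0.0108). In all 3 peaks the Tprog and Tterm libraries stayed apart. Nfatc1 at 80628934 had 34.6, 25.6 and 18.3 reads against 63.7, 105 and 47.2 (log2 1.39 ± 0.41, adjusted p = 0.0239), and the Nfatc2 peak at chr2:168594733-168596727 rose from 423 ± 29.6 to 680 ± 98.1 (log2 0.68 ± 0.17, adjusted p = 0.0078). Leaving out aged Tterm replicate 2 reduced the NFAT count to 2 peaks, and the count over all peaks in that fit is not given. The adjusted p (limma) was then 0.164 for Nfatc1 at 80628934, 0.0593 for Nfatc2 at 168594733 and 0.0586 for Nfat5 at 107309948. The Nfatc1 call was also lost without aged Tterm replicate 1 (adjusted p = 0.0504), aged Tprog replicate 2 (0.0584) or aged Tprog replicate 3 (0.114).

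The 2 ages were then compared directly. For the interaction of age and subset, limma called 0 NFAT peaks and 0% of all peaks; at an unadjusted p under 0.05 there were 4 NFAT peaks of 65 and 5676 of 71756 peaks. edgeR called 0 peaks of the whole table, and DESeq2 called 5 higher and 14 lower, with 0 NFAT peaks among them. The NFAT peak with the lowest interaction p was Nfatc2 at 168574644, where the fall from Tprog to Tterm was -1.32 in young and -0.67 in aged cells, a difference of 0.65 ± 0.22 (limma, adjusted p = 0.584). In Tterm cells, aged minus young gave 0 NFAT calls, with limma calling 0.00836% of all peaks. At an unadjusted p under 0.05 there were 6 NFAT peaks of 65 and 5122 of 71756 peaks. The lowest p was at the weak Nfatc2 peak 168549431, with 15.6 ± 5.34 reads in young and 35.4 ± 2.82 in aged Tterm (log2 1.19 ± 0.38, adjusted p = 0.441). In Tprog cells the same contrast gave 0 NFAT calls against 0.166% of all peaks. There, 8 NFAT peaks of 65 and 9029 of 71756 peaks had an unadjusted p under 0.05. Nfatc1 at 80706158 had 952 ± 56.4 in young and 1216 ± 59.8 in aged Tprog (log2 0.35 ± 0.11, adjusted p = 0.175), and the inner Nfatc2 start 1278 ± 84.9 and 1618 ± 143 (0.34, adjusted p = 0.178). edgeR and DESeq2 called 0 NFAT peaks in both age contrasts.

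Tadys cells, from aged mice only, differed from both other subsets at a few NFAT peaks. Against aged Tterm, 0 peaks were called higher and 4 lower, where 2.06% and 4.23% of all peaks were called. Against aged Tprog, 2 were higher and 3 lower, where 2.61% and 4.04% were called. The median NFAT difference was -0.15 from Tterm and 0.01 from Tprog, against -0.03 and -0.01 over all peaks. At equal library totals the counts were 0 and 3 against Tterm, with 1918 higher and 2166 lower over all peaks in place of 1481 and 3037, and 4 and 3 against Tprog, with 2241 and 2748 in place of 1871 and 2902. The 2 NK marker genes with a gene-end peak, Klrb1c and Eomes, summed to 1670 and 1715 in the Tadys libraries. They summed to 2123 to 2844 in aged Tterm and 2424 to 2586 in aged Tprog. The CD4 and regulatory T cell markers with such a peak (Zbtb7b, Ctla4, Ikzf2 and Il2ra, without Cd4 and Foxp3) summed to 3005 and 3493 in Tadys. They summed to 3544 to 3931 in aged Tterm and 3574 to 4014 in aged Tprog. These sums do not tell other cell types from the sorted cells' own chromatin, and the part of both lists in these results was not tested.

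The clearest of these was the Nfatc2 intragenic peak at 168578296, with 18.0 and 27.3 reads in Tadys, 84.4, 76.6 and 73.7 in aged Tterm and 154, 125 and 123 in aged Tprog. Tadys was below both subsets in every library. The differences were -1.77 ± 0.33 from Tterm (limma, adjusted p = 0.00245) and -2.53 ± 0.33 from Tprog (adjusted p = 0.000114). Its neighbour at 168574644 did not share that order: the Tadys values of 260.5 and 333 lay between Tterm and Tprog, with adjusted p = 0.386 and 0.22. The downstream Nfatc2 peak had 439 and 403 reads in Tadys, below the 726 to 806 of aged Tterm (log2 -0.88 ± 0.18, adjusted p = 0.00416) and above the 295 to 300.3 of aged Tprog (0.50 ± 0.18, adjusted p = 0.0825).

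At Nfatc1, the peak at 80706158 had 849.6 and 912 reads in Tadys, below both aged Tterm (1258 to 1501, log2 -0.65 ± 0.13, adjusted p = 0.00493) and aged Tprog (1170 to 1284, -0.46 ± 0.13, adjusted p = 0.0361). The second of these calls was lost with edgeR (adjusted p = 0.0538) and without any 1 of the 5 libraries compared (0.0522 to 0.188). An intergenic Nfatc1 peak, chr18:80545822-80546903, was higher in Tadys, at 178 and 149, than in aged Tprog, at 42.3, 37.0 and 54.8 (log2 1.86 ± 0.35, adjusted p = 0.00285). The intergenic Nfatc2 peak chr2:168410399-168411109 had 80.2 and 71.4 reads in Tadys and 7.69, 2.69 and 49.0 in aged Tprog (log2 2.71 ± 0.80, adjusted p = 0.0397), a call lost with edgeR (1.85, 0.142), DESeq2 (1.86, 0.123) and without aged Tadys replicate 1 (adjusted p = 0.165) or 2 (0.0831) or aged Tprog replicate 1 (0.0707) or 2 (0.188). Nfatc1 at chr18:80617383-80620425 was called lower than in Tterm (-0.80 ± 0.24, adjusted p = 0.0458), but the 2 Tadys libraries had 250.5 and 494 reads, and without replicate 1 the difference was -0.31 (adjusted p = 0.544). That call was lost as well with edgeR, DESeq2, equal totals or without any 1 of the 3 Tterm libraries. Nfat5 at 107323212 had 124 and 153 reads in Tadys and 249.8, 331 and 275 in aged Tprog (log2 -1.03 ± 0.25, adjusted p = 0.0137), lost without Tadys replicate 1 (0.12) or aged Tprog replicate 2 (0.064). Without aged Tprog replicate 2, the count against Tprog was 1 higher and 1 lower, and the count over all peaks in that fit is not given. Leaving out 1 of the 2 Tadys libraries left a single library in that group, so the NFAT counts of those fits are not given here.

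The OT-1 table holds other libraries with their own peak set, and so repeats the contrast of subsets in cells of 1 receptor. Of its 112 NFAT peaks 79 had a mean of 10 reads or more and were tested. Of the 65 tested endogenous NFAT peaks, 58 overlapped a tested OT-1 peak by at least 50% of the shorter. All 18 peaks called in young endogenous cells were among them, and 18 of 18 had the same sign in young OT-1 cells; over all peaks the share was 96.0% of 17512. Young OT-1 Tterm minus Tprog called 3 NFAT peaks higher and 3 lower, against 4.06% and 3.57% of all 84091 peaks, with medians of 0.23 and -0.01. Of these 6, 5 had also been called in endogenous cells, which is 83.3% of the OT-1 calls (77.4% over all peaks) and 27.8% of the 18 endogenous calls (28.5% over all). Without either young OT-1 Tprog library a single one was left in that group, so the NFAT counts of those fits are not given here. At equal totals 6 NFAT peaks were higher and 4 lower, with the median over all peaks at -0.13. The whole table gave 3663 higher and 4154 lower at equal totals, in place of 3412 and 3001. Both young Tprog libraries were in batch 4 & 5, while 2 of the 7 young Tterm libraries were in batch 6. Within batch 4 & 5 alone 5 NFAT peaks were higher and 4 lower, beside 5231 and 3897 over all peaks. The 3 of 6 NK markers with a gene-end peak here (Klrb1c, Fcer1g and Eomes) summed to 1460 to 1941 in young OT-1 Tterm and to 1086 and 1200.2 in young OT-1 Tprog. Their part was not tested.

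**Figure D3:**
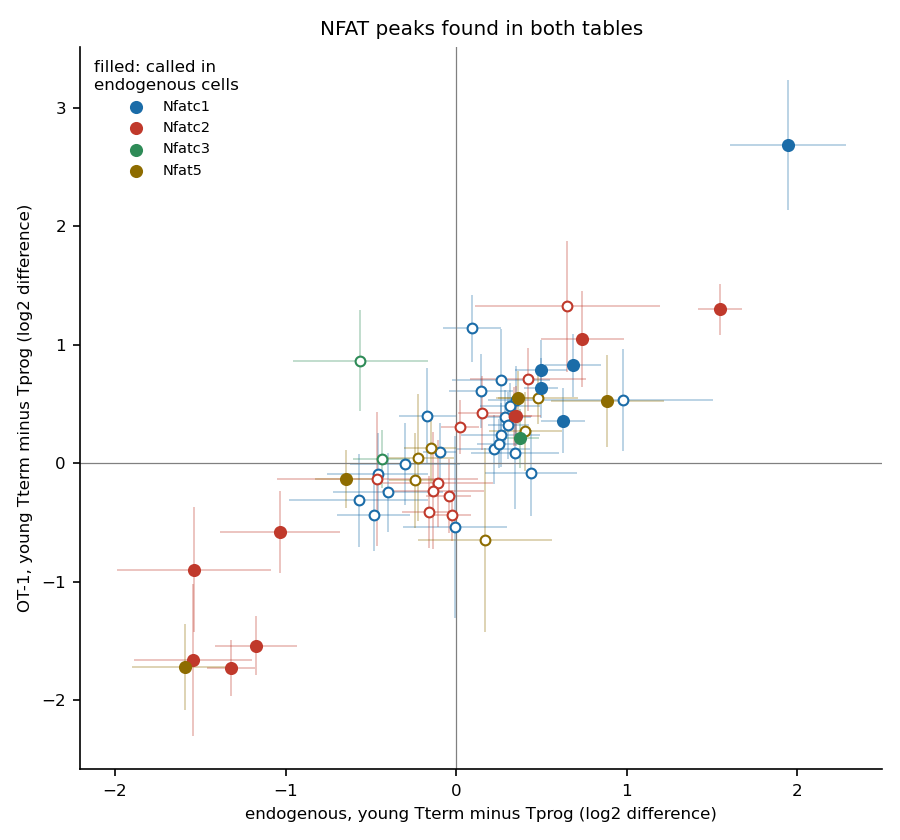
For the 58 NFAT peaks tested in both tables, the log2 difference of young Tterm minus Tprog in endogenous cells (x axis) is plotted against that in OT-1 cells (y axis), with bars of 1 SE. The peaks called in endogenous cells lie in the lower left and upper right, 18 of 18 with the same sign in both tables.

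The 5 shared calls were the peaks described above. The downstream Nfatc2 peak, here chr2:168428516-168430511, had 159.5 and 159 reads in young OT-1 Tprog and 291 to 565 (median 382) in young OT-1 Tterm (log2 1.30 ± 0.22, limma, adjusted p = 0.000287). The intragenic Nfatc2 peak at chr2:168574566-168575693 had 408 and 323 reads against 78.1 to 131 (median 109), a log2 difference of -1.73 ± 0.24 (adjusted p = 2.96e-05). Its neighbour chr2:168577433-168578701 had 263 and 213 against 65.5 to 88.0 (median 82.8, log2 -1.54 ± 0.25, adjusted p = 0.00021). In each of them the 2 Tprog libraries stood outside the range of the 7 Tterm libraries. Nfat5 at chr8:107310107-107310760 had 104 and 149.7 reads against 11.1 to 43.7 (median 38.2, log2 -1.72 ± 0.36, adjusted p = 0.00291; without Tprog replicate 2, -1.46 and 0.139). Nfatc1 at chr18:80628934-80629443 was low in all groups, with 10.0 and 1.18 reads against 12.3 to 63.3 (median 37.3, log2 2.69 ± 0.55, adjusted p = 0.0022), and without Tprog replicate 2 its difference was 1.52 (adjusted p = 0.294). The call outside the endogenous set was Nfatc1 at chr18:80704591-80705081, with 66.9 and 46.0 against 111 to 172 (median 122, log2 1.14 ± 0.28, adjusted p = 0.0111; without Tprog replicate 2, 0.87 and 0.311).

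Aged OT-1 Tterm minus Tprog called 18 NFAT peaks higher and 2 lower, against 11.3% and 3.39% of all peaks. The NFAT shares were 22.8% and 2.53%, and the medians 0.30 and 0.15. Nfatc1 made up 14 of the 18 higher calls. These counts rested on the 2 aged OT-1 Tprog libraries, of which replicate 1 had a normalized total of 7.92 megareads against 11.6 in replicate 2. Differences at some Nfatc1 peaks were much smaller without replicate 1, as given below. Without either of the 2 a single library was left in that group, so the NFAT counts of those fits are not given here. At equal library totals 13 were higher and 7 lower, the median over all peaks moved to -0.25 and the whole table gave 5745 higher and 6047 lower in place of 9477 and 2850. Batch 6 held both Tprog libraries and only 1 of these Tterm libraries, so any count within it would rest on that library. edgeR called 9 NFAT peaks higher and 5 lower, with 5812 higher and 5367 lower over all peaks. The NK markers summed to 1286 to 1725 in aged OT-1 Tterm and to 867 and 1099 in aged OT-1 Tprog; their part was not tested.

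Among the peaks of this contrast, the downstream Nfatc2 peak had 125 and 104 reads in aged OT-1 Tprog and 338 to 416 (median 364) in aged OT-1 Tterm (log2 1.71 ± 0.26, limma, adjusted p = 7.57e-05). The Nfatc2 peak at 168574566 had 185 and 226 against 61.3 to 90.1 (median 70.4, log2 -1.63 ± 0.28, adjusted p = 0.000326). Nfatc1 at chr18:80617430-80620451 had a log2 difference of 1.60 ± 0.24 (adjusted p = 5.81e-05). These 3 were called whichever library was left out, though not within batch 6 alone, where the differences were 1.66, -1.35 and 1.66 (adjusted p = 0.794, 0.959 and 0.787). Nfatc1 at 80628934 had 20.9 and 6.03 reads in Tprog and 22.6 to 57.3 (median 37.7) in Tterm (2.13 ± 0.66, adjusted p = 0.0296), lost without Tprog replicate 2 (1.31, 0.176), with edgeR (1.78, 0.0724) and at equal totals (1.74, 0.0909). Many Nfatc1 peaks showed the gap between the 2 Tprog libraries: at chr18:80684226-80685267 they had 109 and 462 reads against 417 to 776 (median 664) in Tterm, and the log2 difference of 1.55 ± 0.46 (adjusted p = 0.0234) became 0.52 (0.585) without replicate 1. Nfat5 at chr8:107290782-107291999 was called lower by 1.50 ± 0.36 (adjusted p = 0.00615) although its means were close, 1184 ± 99.6 in Tprog and 1123 ± 465 in Tterm. The single batch 6 Tterm library had 203 reads there and the next lowest Tterm library 1149; without that library the difference was -0.57 (adjusted p = 0.16) and without the batch term -0.31 (0.674). Of the 5 endogenous calls in aged cells, 5 of 5 had the same sign in aged OT-1 cells (88.4% over all peaks). Of them 4 were called in both, 80% of the endogenous calls (50.0% over all) and 20% of the 20 OT-1 calls (33.6% over all).

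**Figure D4:**
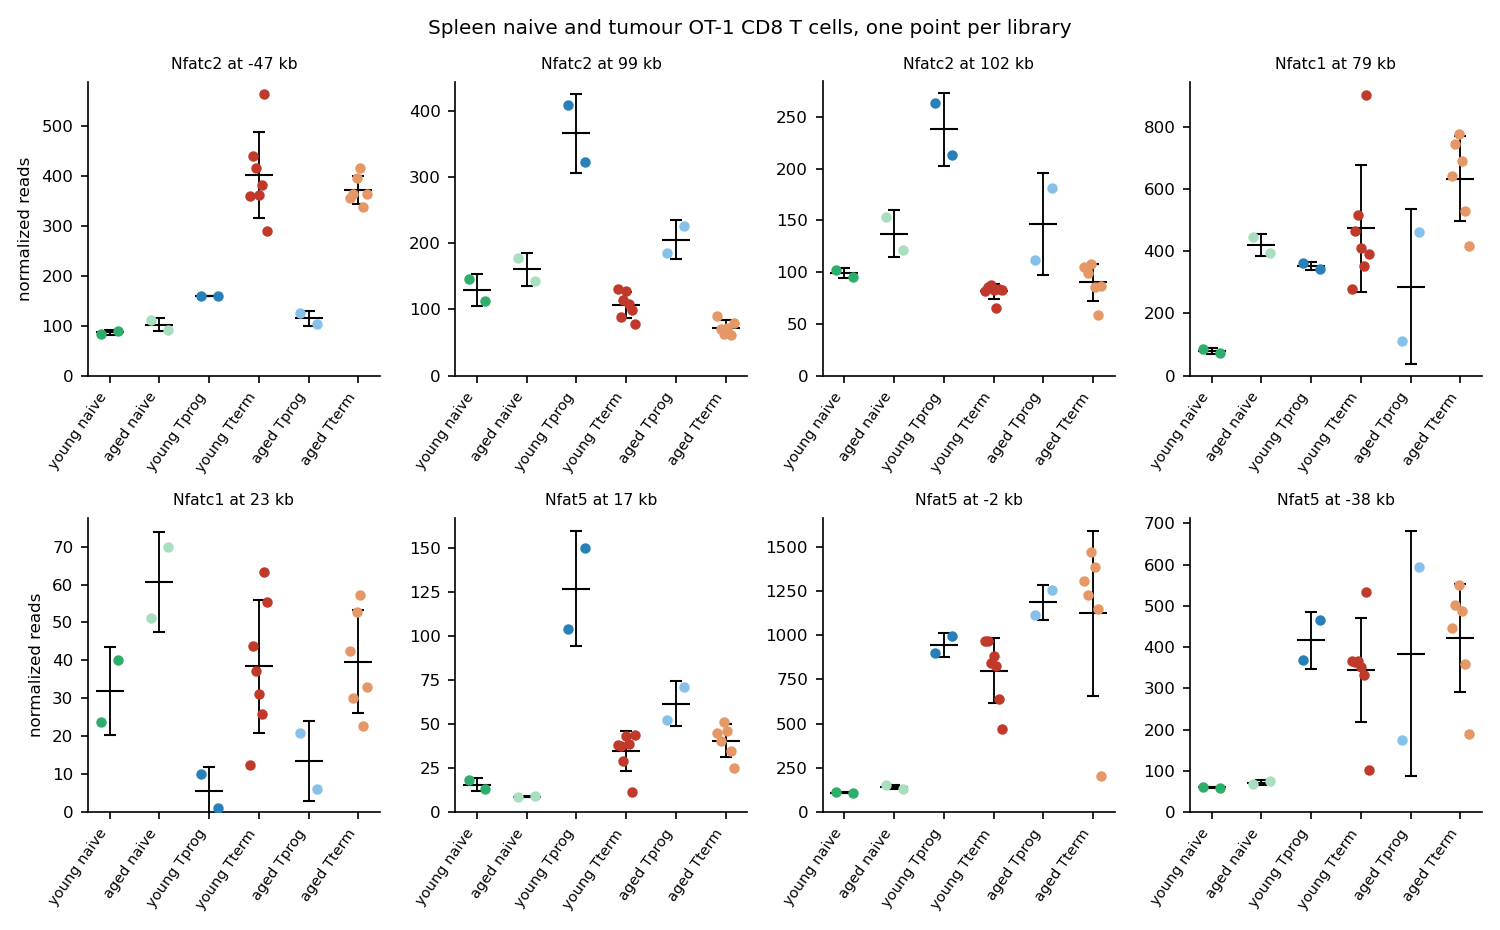
Normalized reads on the y axis are plotted for 8 NFAT peaks in the 6 groups of the OT-1 and naive table; panel titles give the distance of the peak centre from the lower-coordinate end of the gene, points are libraries and bars show the mean ± SD. The 2 aged OT-1 Tprog libraries stand far apart at Nfatc1 80684226 (109 and 462), and the naive libraries are lowest at Nfat5 107290782 (107 to 151, below 203 to 1469 in the OT-1 groups).

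Age within OT-1 Tterm gave 0 NFAT calls with limma in a fit over both batches, against 0.266% of all peaks. An unadjusted p under 0.05 was found at 5 NFAT peaks of 79 and 6722 of 84091 peaks. edgeR and DESeq2 called 0 NFAT peaks. Within batch 4 & 5 alone, with 5 libraries of each age, 4 NFAT peaks were called higher in aged cells and 1 lower, against 2.10% and 0.602% of all peaks. All 5 are named here after their values were seen. Nfatc1 at 80684226 had 403 ± 92.6 reads in young and 675 ± 97.1 in aged Tterm, with no overlap between 279 to 514 and 529 to 776 (log2 0.76 ± 0.16, adjusted p = 0.0111). Nfat5 at 107290782 had 897 ± 66.5 and 1307 ± 126 (0.54 ± 0.12, adjusted p = 0.0144), and Nfatc2 at 168574566 had 114 and 71.1 on average (-0.68 ± 0.16, adjusted p = 0.0267). The others were Nfatc1 at chr18:80546001-80546924 (1.26 ± 0.31, adjusted p = 0.0308) and at chr18:80695959-80697870 (0.54 ± 0.12, adjusted p = 0.0217). In batch 6, with 2 young libraries and 1 aged library, the same differences were -0.51 for Nfatc1 at 80684226, -1.43 for Nfat5, -0.14 for Nfatc2, -0.66 for Nfatc1 at 80546001 and -0.08 for Nfatc1 at 80695959, all with adjusted p = 1.00. Of the 5, only the Nfatc2 peak thus kept its sign in batch 6, where 516 peaks of the whole table and 0 NFAT peaks had an unadjusted p under 0.05. For OT-1 Tprog all young libraries were in batch 4 & 5 and all aged ones in batch 6, so age and batch cannot be told apart. There limma called 0 NFAT peaks and 0.0951% of all peaks. An unadjusted p under 0.05 was found at 10 NFAT peaks of 79 and 11253 of 84091 peaks. edgeR called 1 NFAT peak, beside 122 higher and 96 lower over all peaks. DESeq2 called 2, beside 397 higher and 505 lower. Leaving out 1 of the aged OT-1 Tprog libraries left a single library in that group, so the NFAT counts of those fits are not given here.

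Naive spleen cells were compared by age within 1 batch. Of the 79 NFAT peaks 6 were called higher in aged cells and 0 lower, against 4.08% and 1.16% of all peaks, with medians of 0.30 for NFAT peaks and 0.11 over all. At equal library totals 3 were higher and 0 lower, and the whole table gave 2862 higher and 1437 lower in place of 3430 and 976, with the median at -0.12. Nfatc1 at 80684226 had 86.8 and 72.2 reads in young naive cells and 444 and 395 in aged ones (log2 2.39 ± 0.46, limma, adjusted p = 0.00231). The aged naive level of that peak was near the levels of young OT-1 Tprog, 361 and 342, in other batches. This call held whichever naive library was left out. Nfatc1 at chr18:80698832-80699398 had 19.3 and 14.4 against 58.0 and 62.1 (1.79 ± 0.41, adjusted p = 0.00863), lost without either aged library or young naive replicate 2 (adjusted p of up to 0.131). The other 4 were Nfat5 at chr8:107360019-107361030 (1.41 ± 0.40, adjusted p = 0.0366), Nfatc1 at chr18:80682774-80683363 (1.34 ± 0.36, 0.0235), Nfatc1 at chr18:80596293-80598538 (0.95 ± 0.28, 0.045) and Nfatc2 at chr2:168555814-168557858 (0.90 ± 0.26, 0.0413). The calls at Nfat5 107360019 and Nfatc1 80682774 were lost without any 1 of the 4 libraries. Such fits had a single library in 1 group, so their NFAT counts are not given here. The 3 of 6 NK marker genes with a gene-end peak (Klrb1c, Fcer1g and Eomes) summed to 1794 and 1889 in aged and 994 and 1066 in young naive libraries. Ncr1, Klra8 and Tyrobp had none. The 4 melanoma markers summed to 559 and 598 in aged and 393 and 400.1 in young libraries, and the 7 of 12 myeloid markers to 1473 and 1585 against 1318 and 1347. The part of these lists in this difference was not tested.

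Against young naive cells, young OT-1 cells from tumours had more open chromatin at many NFAT peaks, with tissue, activation and batch all differing between the groups, which cannot be told apart. For Tterm 30 peaks were called higher and 4 lower, against 22.4% and 17.9% of all peaks, so 38.0% and 5.06% of NFAT peaks. For Tprog the counts were 22 and 3, against 15.0% and 9.15% of all peaks. The median NFAT difference was 0.61 for Tterm and 0.42 for Tprog, against -0.06 and -0.03 over all peaks. Both comparisons use the same 2 naive libraries. The NK markers summed to 1460 to 1941 in young OT-1 Tterm, 1086 and 1200.2 in young OT-1 Tprog and 994 and 1066 in young naive cells. The 6 of 7 CD4 and regulatory T cell markers summed to 1893 to 3246, 2081 to 2308 and 1689.5 to 1730.5, and the myeloid markers to 1616 to 2083, 1593 to 1609 and 1318 to 1347. Their part was not tested. By gene, Tterm had 16 of 40 Nfatc1 peaks higher, 7 of 24 Nfatc2 peaks, 1 of 5 Nfatc3 peaks and 6 of 10 Nfat5 peaks. At equal totals the counts were 29 and 7 for Tterm, where the median over all peaks was -0.26, and 24 and 5 for Tprog, where it was -0.11. Over all peaks that scaling gave 17018 higher and 21934 lower for Tterm, in place of 18877 and 15020, and 13197 and 10985 for Tprog, in place of 12611 and 7697. Fits without 1 of the 2 naive or 2 Tprog libraries had a single library in that group, so their NFAT counts are not given here. Several of the calls named below were lost in those fits.

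**Figure D5:**
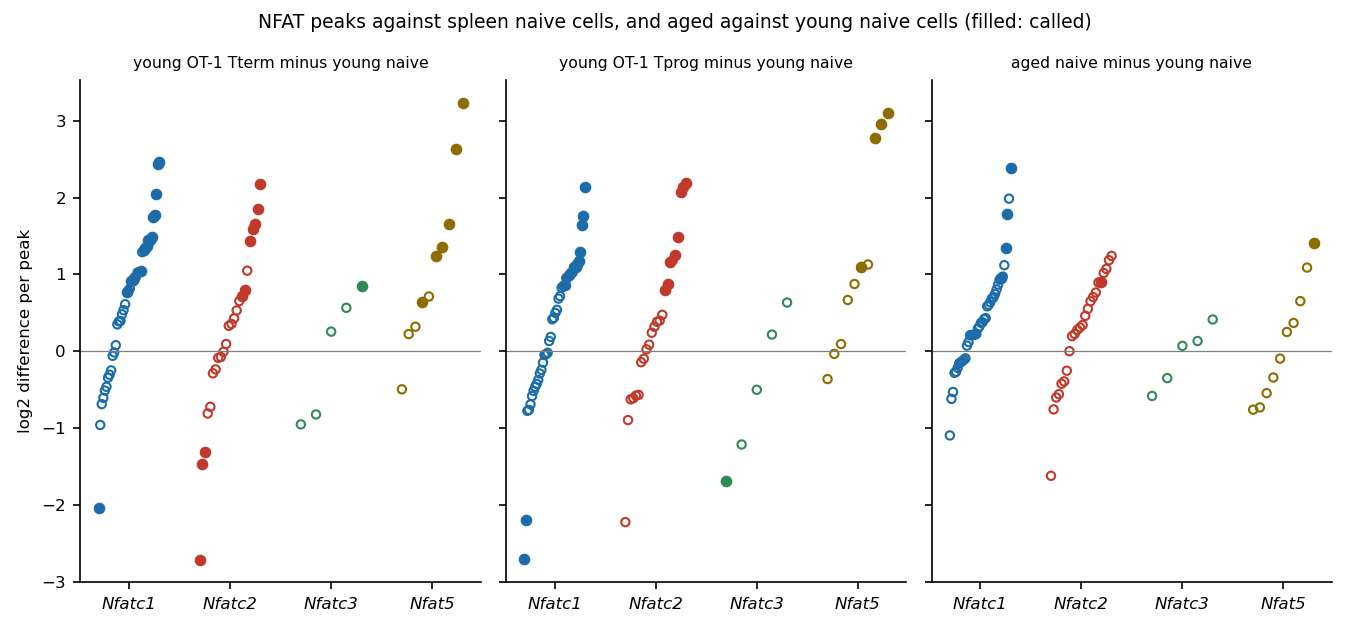
Log2 differences of single NFAT peaks, grouped by gene, are shown on the y axis for young OT-1 Tterm minus naive, young OT-1 Tprog minus naive and naive aged minus young; filled points are called. Nfat5 107290782 is the highest point in both tumour contrasts, at 3.23 and 3.10.

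The largest rise was at Nfat5, in a peak 1.44 kb upstream of its gene. At chr8:107290782-107291999 the naive libraries had 111 and 107 reads, young OT-1 Tprog 897 and 993 and young OT-1 Tterm 471 to 968 (median 842). Every tumour library was above both naive libraries. The log2 differences were 3.10 ± 0.36 for Tprog (limma, adjusted p = 1.30e-06) and 3.23 ± 0.30 for Tterm (adjusted p = 1.18e-08). A further upstream Nfat5 peak, chr8:107254351-107256177, had 59.8 and 59.3 in naive cells and rose by 2.78 in Tprog and 2.63 in Tterm (adjusted p = 0.000184 and 1.19e-05). The intragenic Nfat5 peak at 107310107, which was lower in Tterm than in Tprog, had 18.0 and 12.8 reads in naive cells, below both Tprog libraries and inside the Tterm range of 11.1 to 43.7, with 2.95 ± 0.44 for Tprog (adjusted p = 2.93e-05) and 1.24 ± 0.36 for Tterm (0.00834, and 0.135 without naive replicate 2).

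At Nfatc2 the peaks rose in different subsets. The downstream peak had 82.9 and 89.8 reads in naive cells, 159.5 and 159 in Tprog and 291 to 565 in Tterm, so Tterm differed from naive by 2.18 ± 0.22 (limma, adjusted p = 3.06e-08) and Tprog by 0.88 ± 0.26 (0.0163, lost without any 1 of the 4 libraries, 0.0685 to 0.11). The intragenic peak at 168574566 had 147 and 112 reads in naive cells and 408 and 323 in Tprog (1.49 ± 0.29, adjusted p = 0.000465), while Tterm, at 78.1 to 131, was not called different from naive. Another intragenic peak, chr2:168579428-168580798, rose in both, by 1.66 in Tterm and 2.07 in Tprog (adjusted p = 0.000108 and 0.00021). The inner start had 668 and 568 reads in naive cells and 747 to 1309 in Tterm (0.72 ± 0.25, adjusted p = 0.0244), lost without naive replicate 1 (0.0793) or 2 (0.211). The weak peak at chr2:168553737-168553970 was lower in Tterm by 2.71 ± 0.86 (adjusted p = 0.0139), lost without either naive library (0.144 and 0.0687).

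At Nfatc1, the peak at 80684226 rose from 86.8 and 72.2 reads in naive cells to 342 and 361 in Tprog and 279 to 902 (median 409) in Tterm, by 2.14 ± 0.46 and 2.44 ± 0.38 (limma, adjusted p = 0.00151 and 1.72e-05). The intergenic peak chr18:80603731-80604549, 1.66 kb beyond the lower end of the gene, rose by 2.47 ± 0.43 in Tterm (adjusted p = 5.90e-05). The peak at the other gene end, chr18:80712199-80716042, had 630.4 and 653 reads in naive cells and 992 to 1624 (median 1236) in Tterm (0.95 ± 0.24, adjusted p = 0.00289). The intragenic peak at 80628934 went the other way in Tprog, from 23.8 and 40.1 to 10.0 and 1.18 (-2.70 ± 0.67, adjusted p = 0.00436), while Tterm, at 12.3 to 63.3, overlapped naive cells; without Tprog replicate 2 the difference was -1.53 (0.168), and without naive replicate 2 it was -2.34 (0.0655). The intergenic peak chr18:80548875-80549301 was lower in both, by 2.04 ± 0.46 in Tterm and 2.19 ± 0.56 in Tprog (adjusted p = 0.00098 and 0.00559), the second lost without naive replicate 2 (-2.01, 0.069). Nfatc3 at its starts had 1018 and 977 reads in naive cells and 1489 to 2539 (median 1786) in Tterm (0.85 ± 0.25, adjusted p = 0.00832), lost without naive replicate 1 (0.0652) or 2 (0.0859).

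The genes around the NFAT proteins were described from lists of the pathway, each by its own peaks in young endogenous Tterm minus Tprog, where 14.3% of all peaks were called higher and 11.3% lower and the median was -0.01. The value given for a gene is that of its peak with the lowest p. Ppp3ca, Rcan1, Dyrk1a, Gsk3b, Itpr1, Stim1, Runx1, Maf, Tnfrsf9, Sgk1, Slc38a2 and Rel had called peaks in both directions. Calcineurin genes had 32 tested peaks, of which 5 were higher and 3 lower (median 0.17). Ppp3ca, the gene of a catalytic subunit, had an intergenic peak that rose from 643 ± 103 to 1324 ± 165 (log2 1.05 ± 0.14, limma, adjusted p = 1.67e-06). Ppp3cc had an intragenic peak that rose by 1.10 ± 0.17 (2.21e-05) and Ppp3cb a weak one that fell by 1.71 on the log2 scale (0.0209). Genes of calcineurin inhibitors and anchors had 37 peaks, 8 higher and 2 lower (median 0.27). Chp1 rose by 0.94 ± 0.16 at its lowest-p peak, Fkbp1a, the FK506-binding protein, by 1.18 ± 0.28 and Rcan3 by 0.60 ± 0.14, while Rcan1, a feedback inhibitor that is itself an NFAT target, fell at its lowest-p peak from 85.4 ± 10.4 to 43.9 ± 9.16 (log2 -0.96 ± 0.25, adjusted p = 0.00572). The kinases that return NFAT to the cytoplasm had 70 peaks, 6 higher and 10 lower (median -0.31), among them Dyrk1a at 0.77 ± 0.14, Csnk1a1 at 0.80 ± 0.15 and Gsk3b at -0.98 ± 0.21.

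Calcium entry genes had 132 peaks, 23 higher and 21 lower (median -0.04). The calcium sensors of the endoplasmic reticulum fell at their lowest-p peaks: a Stim2 intragenic peak had 191 to 213 reads in young Tprog and 23.3 to 34.1 in young Tterm (log2 -2.79 ± 0.27, limma, adjusted p = 1.34e-08), and a Stim1 peak 191 to 256 and 41.2 to 69.8 (-1.91 ± 0.28, 9.37e-06). The channel gene Orai1 rose at its lowest-p peak by 0.71 ± 0.24 (adjusted p = 0.0301), with overlapping libraries. Of the inositol trisphosphate receptors, Itpr3 rose by 1.60 ± 0.17 and Itpr1 fell by 1.34 on the log2 scale at their lowest-p peaks. Partner factor genes had 147 peaks, 23 higher and 24 lower (median -0.06), with a Jun peak at 172 to 362 reads in Tprog and 20.3 to 39.9 in Tterm (-3.12 ± 0.27, adjusted p = 2.40e-09), a Runx1 peak at -2.26 ± 0.27 and a Maf peak at 1.24 ± 0.21.

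Genes that NFAT is known to activate in T cells had 312 peaks, 65 higher and 56 lower (median 0.02). Among them the Havcr2 peak rose by 1.15 ± 0.10, which the sort on Tim-3 bears on, and peaks of Tnfrsf9 (the 4-1BB gene), Il2 and Nr4a1 fell by 2.01, 1.46 and 1.11 on the log2 scale (limma, adjusted p = 7.59e-09, 3.04e-08 and 0.000509). NFAT5 target genes of the osmotic response had 60 peaks, 7 higher and 8 lower (median -0.19), with lowest-p peaks that fell at Sgk1 (-2.21 ± 0.27), Slc38a2 (-1.52 ± 0.27) and the inositol transporter Slc5a3 (-1.59 ± 0.39). The other genes with a Rel-homology domain had 44 peaks, 3 higher and 11 lower (median -0.20), with lowest-p peaks that fell at Nfkb1 (-1.73 ± 0.23) and Rela (-1.40 ± 0.29), a rise at the gene end of Rel (0.33 ± 0.10) and no call at Nfatc4 (0.24 ± 0.20, adjusted p = 0.424).

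In the OT-1 and naive table the target genes had 157 of 354 peaks higher and 30 lower in young OT-1 Tterm against naive (44.4% and 8.47%, median 0.77), and the partner genes 72 and 21 of 173 (41.6% and 12.1%, median 0.55), beside 22.4% and 17.9% over all peaks. Kinase genes had 14 and 27 of 90 (15.6% and 30.0%, median -0.67). The remaining lists had 9 and 7 of 39 for calcineurin, 12 and 7 of 44 for its inhibitors and anchors, 49 and 34 of 167 for calcium entry, 16 and 14 of 80 for NFAT5 targets and 15 and 3 of 51 for the other Rel-homology genes, with medians of 0.10, 0.37, 0.17, 0.04 and 0.20. In aged against young naive cells 37 target peaks were higher and 4 lower (10.5% and 1.13%, median 0.36), and calcium entry peaks 14 and 0 of 167 (8.38%, median 0.29), beside 4.08% and 1.16% over all peaks. The counts were 13 and 2 of 173 for partners, 4 and 0 of 39 for calcineurin, 4 and 1 of 44 for its inhibitors and anchors, 5 and 1 of 80 for NFAT5 targets and 1 and 0 of 51 for the other Rel-homology genes. Of the 90 kinase peaks limma called 0 (median -0.07), with 5 at an unadjusted p under 0.05, beside 14687 of all 84091 peaks.

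The peaks whose levels ran most like those of the NFAT peaks were taken over single libraries, by Pearson r of log2 values, as a description; these libraries share their subsets, batches and depth. For the downstream Nfatc2 peak, over 17 endogenous libraries, peaks of Traf3, 1110032F04Rik, Havcr2, Ugcg and Rgs8 came first, each at r = 0.97. Nfatc1 at 80628934 was nearest to peaks of Atp8b4 (r = 0.93), B4galnt2, Slc2a10, Rab11fip4 and Ccl4 (0.92 each). The Nfatc3 start was nearest to a Ccl5 peak (0.95), Spata5, Rinl, Sigirr and Atxn1, and Nfat5 at 107309948 to peaks of Slc1a2 (0.95), Unc5c, Fap, P4ha2 and Bcat1. Over the 21 libraries of the other table the leading peaks were those of Zcchc14 for Nfatc2 (0.99), Max for Nfatc1 (0.91), Klf13 for Nfatc3 (0.99) and Homer1 for Nfat5 (0.96). None of the 5 leading genes of a peak in one table was among the 5 in the other.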

How the data were processed

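The labels' protocols give Tn5 transposition with digitonin, read pairs of 50 bp and 2 or 3 pools of biological replicates per group. Per the submitters' processing notes, Bowtie2 2.2.9, Picard 2.8.0, SAMtools 1.3.1, MACS2 2.1.1, DESeq2 1.28.1 and mm10 were used; the sources used here do not state how reads were shifted and peaks merged. The deposited values are a signal per peak, reads divided by a size factor per library. Whole reads were recovered for 100% of values (tolerance 0.1 reads) and served as counts for edgeR and DESeq2.

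Peaks with a mean of 10 or more were tested, 71756 and 84091. The model for log2(value + 1) used limma 3.58.1 (R 4.3.3), fitting every group of a table jointly in 1 model with a variance trend, plus a batch 6 term in the OT-1 and naive table. Values of 14 comparisons were adjusted by Benjamini-Hochberg over all tested peaks. The script was tested on simulated reads. Alternatives were a pseudocount of 5, no filter, equal library totals, edgeR 4.0.16, DESeq2 1.42.0, a replicate block, other batch treatments and each library left out.

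Each peak was given to its nearest gene among 21900 protein-coding ones (RefSeq, GRCm38.p6, which is mm10); a gene-end peak lies within 1 kb of either end. Peaks were named by rule: those at a start, the highest, up to 3 called peaks of largest difference per gene, direction and comparison, and the lowest p of each; of the pathway lists, 3 genes each and 6 set ones. The members and lists were chosen with earlier results of these data known.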

Additional observations from a re-analysis of the deposited data

Results flagged for a closer look

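Among 136 groups of 4 to 10 libraries of the named NFAT peaks, 12 held a library that lay far from the others by Dixon's test. Chance gives about 1 in 20 for a single group. The same libraries recur here over peaks picked from these data, so that rate cannot judge the 12. Young OT-1 Tterm replicate 6, of batch 6 and with the highest normalized total of its table (15.0 megareads), accounted for 6 of them, always as the highest. It had 172 reads at Nfatc1 80704591 (next 127), 902 at Nfatc1 80684226 (next 514), 124 at Nfatc1 80682774 (next 68.7), 417 at Nfatc1 80642060 (next 256), 55.5 at Nfatc2 168531273 (next 33.9) and 2539 at the Nfatc3 start (next 1904). Aged OT-1 Tterm replicate 6, also of batch 6, had 203 reads at Nfat5 107290782, where the next lowest had 1149. The other OT-1 values were 111 at Nfatc1 80702581 in aged Tterm replicate 3 (next 54.6), 58.3 at Nfatc2 168531273 in aged Tterm replicate 1 (next 36.3) and 65.5 at Nfatc2 168577433 in young Tterm replicate 5, the lowest (next 82.0). In endogenous cells, young Tterm replicate 2 had 464 at Nfatc1 80689799 (next 333) and young Tprog replicate 4 had 43.0 at Nfatc3 106068782 (next 28.4).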

How the results depend on the processing

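Of 104 called differences at named peaks, 45 stayed called under every alternative and 0 changed direction. Called NFAT peaks moved by over 1.5 times in these cases: for aged endogenous Tterm minus Tprog, DESeq2 gave 8 (main 5); for young OT-1, equal totals and DESeq2 gave 10 each (main 6); for aged OT-1, the replicate block gave 7 and batch 6 alone 0 (main 20); for OT-1 Tterm age, batch 4 & 5 alone gave 5 (main 0); for OT-1 Tprog age, equal totals gave 1, edgeR 1 and DESeq2 2 (main 0); for naive age, no filter and equal totals gave 3 each (main 6). Over all peaks the higher and lower calls moved as well: 5731 and 5094 for DESeq2 in aged endogenous cells (main 4843 and 3856), 3663 and 4154 at equal totals and 4257 and 4541 with DESeq2 in young OT-1 cells (main 3412 and 3001), 3383 and 1173 with the block and 20 and 4 in batch 6 for aged OT-1 cells (main 9477 and 2850), and 2708 and 764 with no filter and 2862 and 1437 at equal totals for naive age (main 3430 and 976). They were 1769 and 506 in batch 4 & 5 for OT-1 Tterm age, where the fit over both batches called 224 in all. For OT-1 Tprog age they were 230 and 188 at equal totals, 122 and 96 with edgeR and 397 and 505 with DESeq2 (main 80 in all). With 1 library left out the counts ran from 15 to 18 for young endogenous Tterm minus Tprog, 2 to 5 for aged, 3 to 9 for Tadys minus Tterm, 2 to 5 for Tadys minus Tprog, 3 to 8 for young OT-1, 6 to 32 for aged OT-1, 0 to 15 for OT-1 Tprog age, 1 to 2 for naive age, 21 to 35 for Tterm minus naive and 11 to 15 for Tprog minus naive; the 3 endogenous age contrasts and OT-1 Tterm age stayed at 0. Where a group had 2 libraries, leaving out 1 of them left a single library, with no spread in that group. Such fits entered the ranges of both Tadys contrasts, young and aged OT-1 cells, OT-1 Tprog age, naive age and both contrasts with naive cells. Those ranges therefore cannot show how stable the counts were. The paragraphs above do not give the NFAT counts of such fits one by one for the same reason. Counts over all peaks in the fits with 1 library left out are not given. The cause of these moves was not tested. Same-numbered libraries of different groups did not deviate together as a whole. The median r was -0.03 over 27 endogenous and 0.00 over 34 other pairs, with 3 and 5 over 0.1. Of the libraries, 3 of 17 and 5 of 21 correlated best with their own number. These pairs also joined groups of different ages, tissues or batches, so they cannot show whether subsets sorted from the same pools were paired. With the block, young endogenous cells had 10 higher and 6 lower NFAT peaks. Of the 104 called differences, 20 missed the threshold with the block (adjusted p from 0.0571 to 0.258), among them the outer Nfatc2 start (-0.86, 0.0949) and Nfat5 107292754 (0.33, 0.0925) in young endogenous cells, Nfatc2 168428516 (1.17, 0.0571) and Nfat5 107290782 (-1.15, 0.208) in aged OT-1 cells, and the inner Nfatc2 start (0.67, 0.0755) and Nfatc2 168553737 (-2.14, 0.0621) in Tterm against naive.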
